A study of Mus musculus with 16 samples.

Results

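The ETS family is a group of transcription factors that share a DNA-binding domain of the winged helix-turn-helix type and recognise sites built around the bases GGAA. The 10 members described here, Spi1, Spib, Erg, Fli1, Etv6, Ets1, Ets2, Elf1, Gabpa and Elf4, were taken as a named list of ETS genes with known functions in blood cells, and not by their values. They were 10 of the 47937 gene identifiers in the count tables, and all 10 were among the 11831 genes that passed a filter on low counts. In haematopoiesis, PU.1 (the product of Spi1) is known for its dose-dependent part in macrophage and B cell development. Erg, Fli1 and Etv6 are known as regulators of haematopoietic stem cells, and Ets1 is known for its functions in lymphocytes. The members were followed through a pair of multipotent progenitor populations and 2 genotypes, with Spi1 set against its relatives.

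RNA was sequenced from multipotent progenitors sorted from mouse bone marrow. The lineage-negative Sca1+ cKit+ (LSK) compartment was divided into MPP3 cells (LSK CD150- CD48+), which are biased towards myeloid fates, and MPP4 cells (LSK CD150- CD48+ Flt3+), which are biased towards lymphoid fates. There were 4 groups of 4 libraries, MPP3 and MPP4 of mice labelled WT and of mice labelled KO for Ebf1, which encodes the B cell transcription factor EBF1. The labels give all mice as C57BL/6, and the methods of the study name the C57BL/6J background. The labels give the WT mice as Ebf1fl/fl Tie2Cre+/+, 2 females and 2 males of 11 or 12 weeks, and the KO mice as Ebf1fl/fl Tie2Cre +/cre, 2 males and 2 females of 9 to 11 weeks, so that by the labels all mice carried the floxed Ebf1 alleles and only the KO mice carried Cre. The design text of the series instead describes the controls as Ebf1 wild type with Tie2Cre, and which description holds is open. The Tie2 promoter drives Cre in endothelial and blood cells from early development, so that recombination was not restricted to the progenitors or to adult life.

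The libraries held between 24823708 and 48703193 counts. Over the whole Ebf1 gene, WT libraries held 5 to 91 counts in MPP3 and 98 to 263 in MPP4 cells, and libraries labelled KO held 6 to 84 in MPP3 and 488 to 928 in MPP4 cells. These counts also cover exons outside the deleted part and therefore do not check the deletion; as they went against the label in MPP4, every KO direction given here rests on the labels. Flt3, the surface receptor that separates the gates, was lower in MPP3 than in MPP4 cells by 2.13 on the log2 scale in WT mice, and the 7 markers of lymphoid progenitors summed to between 58.2 and 104.6 CPM in the 8 MPP3 libraries and to between 1270 and 2025 CPM in the 8 MPP4 libraries. CPM stands for counts scaled to a common library size, here corrected with TMM factors. Among markers of the lineages depleted before the sort, Ly6g had 0 counts in all MPP3 libraries and no more than 4 counts in any MPP4 library. As these were bulk libraries, fewer cells of a type and less RNA per cell cannot be told apart in any of the values below.

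MPP3 and MPP4 libraries of the same genotype and number shared the labelled sex and age, and they deviated together from their group means, with a correlation between 0.274 and 0.528 in all 8 pairs. The numbers were therefore read as 8 mice, each giving both populations. A fit with the mouse as a replicate block is given beside a result where it changed the call. Calls were made at a false discovery rate (FDR) under 0.1, adjusted over all genes tested with edgeR's quasi-likelihood test, and errors of fold changes are standard errors (SE).

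The members differ in their start regions, of which 3 are printed because their genes come up repeatedly below: Spib, the least abundant member, Erg, whose level relative to Spi1 did not overlap between the genotypes, and Gabpa, the only member whose population difference took opposite signs in the genotypes by more than its SE. RefSeq promoter sequences (GRCm38.p6, from 250 bases before to 50 bases after a start) were matched by symbol for 7 of the 10 members, Spib, Erg, Etv6, Ets2, Elf1, Gabpa and Elf4, and not for Spi1, Fli1 and Ets1. Each is written 5′ to 3′ on the strand of the gene, and capitals mark GGAA or its reverse complement TTCC, the core of an ETS site.
Spib, chr7:44532022-44532321, minus strand: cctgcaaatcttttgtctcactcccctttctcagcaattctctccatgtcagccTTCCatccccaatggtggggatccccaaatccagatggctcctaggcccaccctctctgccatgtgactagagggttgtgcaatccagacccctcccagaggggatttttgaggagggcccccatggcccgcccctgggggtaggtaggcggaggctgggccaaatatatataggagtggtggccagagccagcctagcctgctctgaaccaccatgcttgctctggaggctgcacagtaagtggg
Erg, chr16:95586544-95586843, minus strand: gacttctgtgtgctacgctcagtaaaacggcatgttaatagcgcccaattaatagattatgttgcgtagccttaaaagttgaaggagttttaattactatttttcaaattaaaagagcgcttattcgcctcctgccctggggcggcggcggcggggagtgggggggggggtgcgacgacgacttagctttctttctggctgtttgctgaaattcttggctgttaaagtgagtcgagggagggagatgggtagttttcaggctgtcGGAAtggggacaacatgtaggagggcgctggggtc
Gabpa, chr16:84834874-84835173, plus strand: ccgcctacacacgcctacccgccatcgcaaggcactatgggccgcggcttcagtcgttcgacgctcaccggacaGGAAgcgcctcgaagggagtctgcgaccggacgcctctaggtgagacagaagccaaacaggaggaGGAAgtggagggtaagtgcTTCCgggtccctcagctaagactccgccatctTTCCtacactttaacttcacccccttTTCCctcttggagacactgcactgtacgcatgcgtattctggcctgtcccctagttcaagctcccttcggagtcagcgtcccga

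The core was found once in the Spib window, once in the printed Erg window and 5 times in the Gabpa window, counting both strands. Erg has 3 start windows in the table, of which the most upstream is printed, and the other two held 4 and 2 cores, so that the number of cores depends on the start taken. Among all 32851 RefSeq promoter windows of the same length, 96% held at least 1 core and 28.6% held at least 5. The Gabpa window also held 1 match to GAGGAA and 1 match to CCGGAA, each of which contains the core, and these were present in 28.3% and 14.9% of all windows. Elf4 had the most matches to the core in 1 window, with 8, a number reached or passed by 3.72% of all windows. Such matches are letters in a window and do not show that a factor was bound.

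Spi1 was the most abundant member per exon length in every group. By CPM alone, Elf1 was higher, with group means of 336 to 407 CPM against 285 to 333 CPM for Spi1. The order of these members thus rests on the annotated exon lengths, 6.737 kb for Elf1 and 2.695 kb for Spi1. Spi1 encodes PU.1, the ETS factor that opens enhancers of myeloid and B cell genes. Its mean level was 105.8 ± 5.69 CPM per kb of exon in MPP3 WT (SD, n = 4), 123.7 ± 17.2 in MPP3 KO, 108.4 ± 10.9 in MPP4 WT and 113.7 ± 13.4 in MPP4 KO. On this scale, it made up between 34.0% and 39.3% of the sum of the 10 members. The lowest Spi1 library was above the highest library of the next member in all 4 groups.

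Fli1, Elf1, Etv6 and Erg followed Spi1, at between 24.9 and 60.4 CPM per kb as group means. The order of Fli1 and Elf1 differed between the populations. In MPP3 cells, Fli1 was second, at 60.1 ± 2.37 CPM per kb in WT, and overlapped with Elf1, at 53.6 ± 4.98. In MPP4 cells, Elf1 was second, at 60.4 ± 2.87 CPM per kb in WT, and did not overlap with Fli1, at 51.6 ± 2.01. Etv6 and Erg came after these in all groups, and their ranges overlapped in each of them.

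Gabpa, Elf4, Ets2 and Ets1 formed a lower tier, at between 3.14 and 10.5 CPM per kb. Ets1 changed its place in this tier. It overlapped with Ets2 at the bottom of the tier in MPP3 cells, at 3.55 ± 0.69 CPM per kb in WT against 4.20 ± 0.44 for Ets2, and overlapped with Gabpa at its top in MPP4 cells, at 9.45 ± 1.49 CPM per kb in WT against 10.2 ± 0.92 for Gabpa. Spib, which encodes the PU.1 relative SPI-B of B cells and plasmacytoid dendritic cells, was last in all groups, at between 0.07 and 0.84 CPM per kb.

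**Figure D1:**
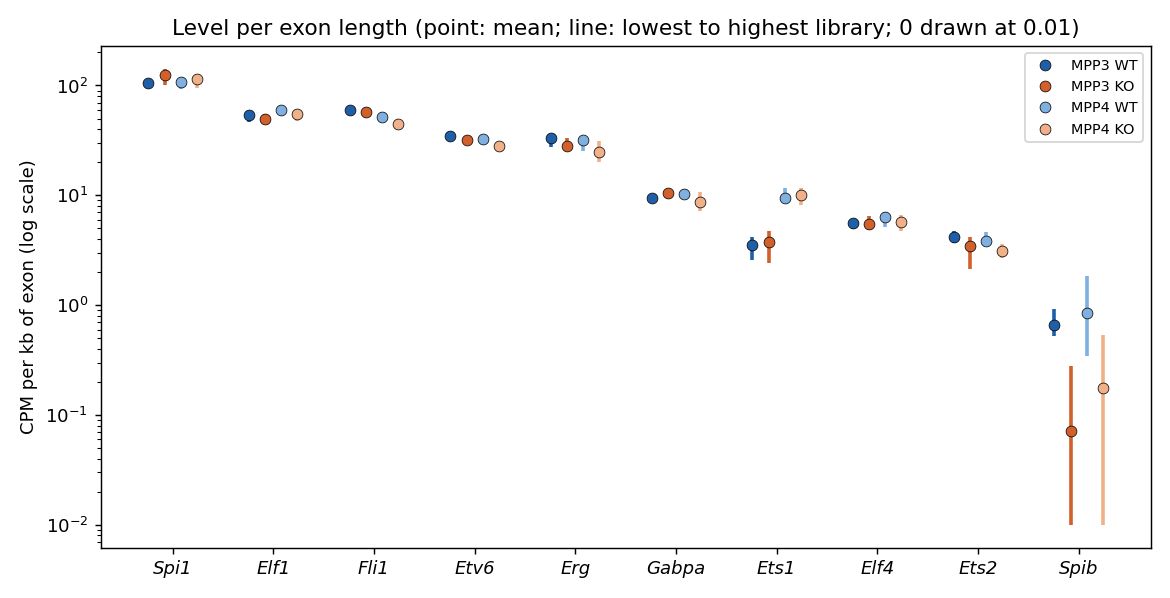
Level of the 10 ETS factors in CPM per kb of exon on a log scale, with the mean (point) and the lowest to highest library (line) of 4 libraries per group; values of 0 are drawn at 0.01. Spi1 lies above all other members in each group, and Ets1 rises from the level of Ets2 in MPP3 cells to that of Gabpa in MPP4 cells.

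The first comparison asked which ETS factors differed between the myeloid-biased MPP3 and the lymphoid-biased MPP4 cells. Ets1 was lower and Fli1 was higher in MPP3 cells, in both genotypes, and the other 8 members did not pass the test. Over all genes, 15.1% were called in WT mice (6.8% higher and 8.33% lower in MPP3 cells) and 17.9% in KO mice (8.71% higher and 9.18% lower), against 2 of 10 members in each. The members' share was thus near that of all genes. The median log2 fold change of the 10 members was -0.08 in WT and 0.13 in KO mice, and that of all genes was 0.00 in WT and -0.01 in KO mice.

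Ets1, a regulator of lymphocyte genes, was measured in the WT mice at 21.7, 35.0, 30.9 and 32.6 CPM in MPP3 cells and at 76.9, 72.1, 98.8 and 72.7 CPM in MPP4 cells. In KO mice it was at 40.2, 37.9, 20.3 and 28.2 CPM in MPP3 and at 99.7, 69.5, 83.9 and 89.5 CPM in MPP4 cells. Every MPP3 library was below every MPP4 library in both genotypes, and groups without overlap were found for 15.9% of all genes and 3 of 10 members (Ets1, Fli1 and Elf1) in WT mice and for 17.2% of all genes and 3 of 10 members (Ets1, Fli1 and Etv6) in KO mice. The log2 fold change was -1.41 ± 0.20 in WT (FDR 0.000103) and -1.44 ± 0.20 in KO mice (FDR 7.67e-05), which is 2.67-fold and 2.71-fold lower in MPP3 cells. Leaving out any 1 library kept the call in both genotypes, with log2 fold changes between -1.49 and -1.29 in WT and between -1.57 and -1.27 in KO mice. The 7 lymphoid progenitor markers were lower in MPP3 cells too, as given above, and their part in the Ets1 difference was not tested. The 8 markers of T and NK cells summed to between 430 and 656 CPM in MPP3 and to between 231 and 416 CPM in MPP4 libraries. Almost all of this sum was Nkg7, with group means of 277 to 563 CPM, and the T cell marker Cd3e had group means of 0.133 to 1.16 CPM and at most 119 counts in any library. Their part in the Ets1 difference was not tested either.

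Fli1, a close relative of Erg that takes part in stem cell and megakaryocyte gene control, was measured in the WT mice at 217, 210, 198 and 213 CPM in MPP3 cells and at 174, 176, 181 and 189 CPM in MPP4 cells. In KO mice it had 217, 204, 183 and 202 CPM in MPP3 and 152, 159, 150 and 165 CPM in MPP4. The groups did not overlap in either genotype, although the differences were small. MPP3 cells were higher by 0.22 ± 0.06 on the log2 scale in WT (FDR 0.0269) and by 0.36 ± 0.06 in KO mice (FDR 0.000537). In WT mice, the call was lost without WT mouse 1 (FDR 0.133), without WT mouse 2 (FDR 0.119) and when all genes with at least 1 count were tested (FDR 0.103). The difference between the genotypes in this contrast was 0.14 ± 0.09, which did not pass the test (FDR 1.00).

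Fli1 and Ets1 are neighbours. They lie on chromosome 9 of GRCm38 in divergent orientation, Fli1 at 32422204 to 32542861 on the minus strand and Ets1 at 32636221 to 32757820 on the plus strand, with 93.4 kb and 0 other protein-coding genes between their ends. The neighbours thus differed in opposite directions between the populations. Erg and Ets2 form a like pair on chromosome 16, in divergent orientation, 115 kb apart with 0 protein-coding genes between them. Neither of them was called in this fit.

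**Figure D2:**
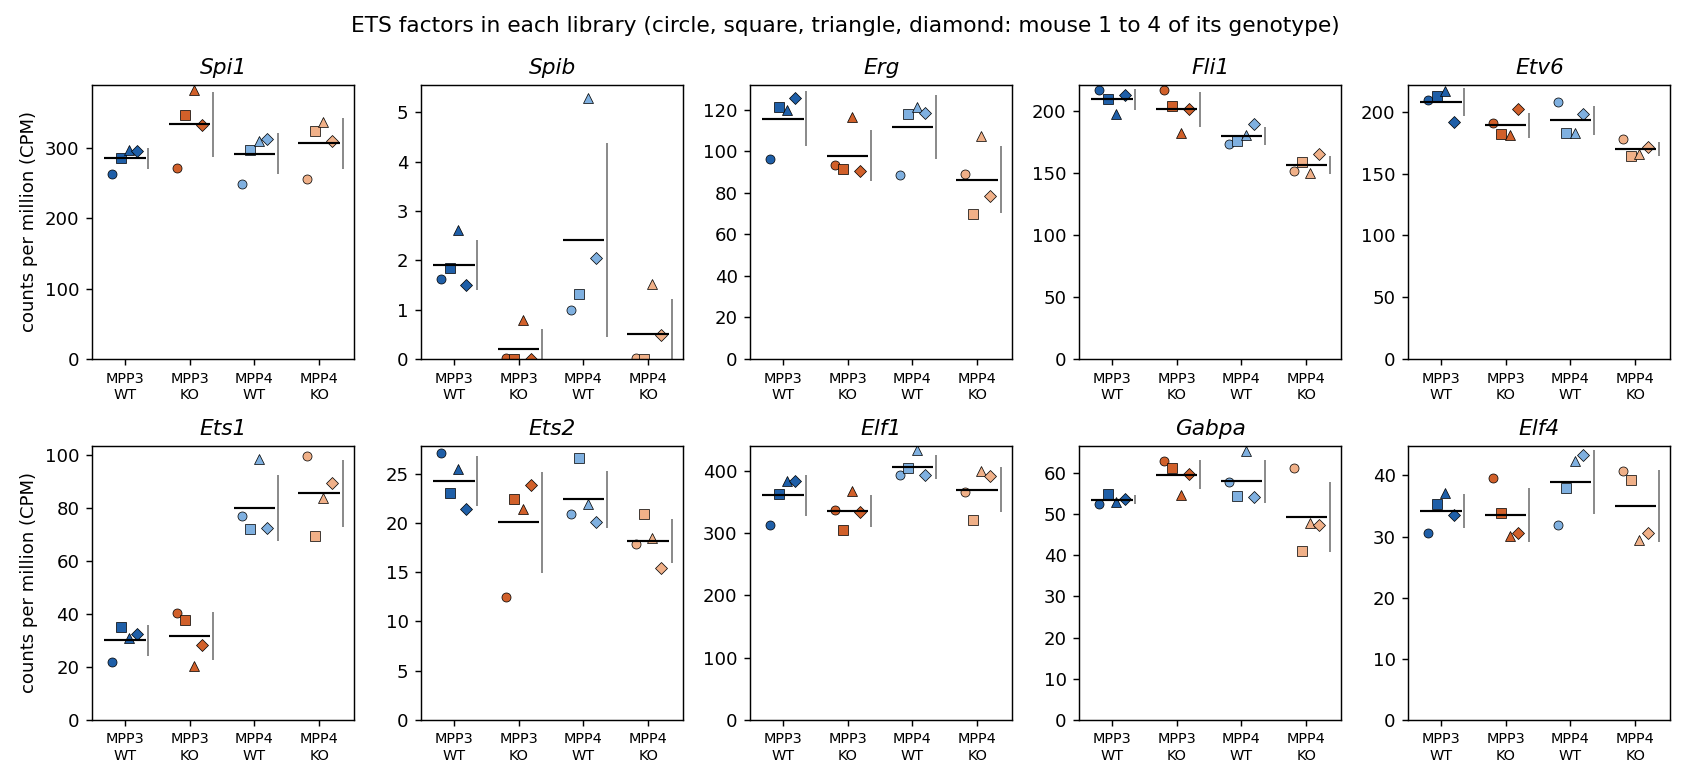
CPM of each ETS factor in the 16 libraries (the symbol gives the mouse, the horizontal line the mean and the grey bar ± 1 SD of 4 libraries), on linear axes that differ between panels. Ets1 separates the MPP3 from the MPP4 libraries, Fli1 lies slightly higher in MPP3 libraries, and Spib is near 0 in most KO libraries.

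Spi1 itself did not pass the test between the populations. In WT mice, it had 263, 285, 297 and 295 CPM in MPP3 and 249, 298, 310 and 312 CPM in MPP4, with a log2 fold change of -0.03 ± 0.10 (95% confidence interval -0.26 to 0.19, FDR 0.905). In KO mice, it had 272, 346, 383 and 333 CPM in MPP3 and 255, 324, 337 and 309 CPM in MPP4. Each KO mouse had slightly more Spi1 in MPP3 than in MPP4 cells. The log2 fold change was 0.12 ± 0.10 (FDR 0.542), and with the mouse as a block it was 0.12 ± 0.04 (FDR 0.0783).

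The block changed the call of further members. In WT mice, it called 24.8% of all genes and 3 of 10 members, which added Elf1. Elf1, an ETS factor of lymphoid and myeloid cells, was lower in MPP3 cells by 0.18 ± 0.05 on the log2 scale with the block (FDR 0.0270) and had a log2 fold change of -0.17 ± 0.08 without it (FDR 0.227). In KO mice, the block called 28.3% of all genes and 7 of 10 members. Besides Spi1, Fli1 and Ets1, these were Erg (0.19 ± 0.06, FDR 0.0491), Etv6 (0.15 ± 0.06, FDR 0.0804), Elf1 (-0.14 ± 0.05, FDR 0.0727) and Gabpa (0.29 ± 0.09, FDR 0.0402). Without the block, FDR values of these 4 were 0.466, 0.124, 0.326 and 0.101. Apart from Ets1, all of these population differences were under 1.3-fold.

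Gabpa encodes the DNA-binding subunit of GABP, a regulator of genes of mitochondria and basic cell functions. It had 52.5, 55.0, 53.0 and 53.7 CPM in MPP3 and 57.9, 54.5, 65.4 and 54.2 CPM in MPP4 cells of WT mice. KO mice had 62.9, 61.3, 54.6 and 59.7 CPM in MPP3 and 61.2, 40.9, 47.8 and 47.3 CPM in MPP4 cells. The groups overlapped in each comparison. The population difference was -0.12 ± 0.10 in WT and 0.27 ± 0.10 in KO mice, and the test of the difference between them gave 0.39 ± 0.15 (unadjusted p = 0.0176, FDR 1.00, edgeR). In KO mice, the population difference passed the test without the MPP4 KO library of mouse 1 (0.40 ± 0.09, FDR 0.00787) or the MPP3 KO library of mouse 3 (0.31 ± 0.11, FDR 0.0948), without the MPP4 WT library of mouse 3 (FDR 0.0953) and without KO mouse 1 (FDR 0.0209). With all libraries, it passed in DESeq2 (FDR 0.0870), with edgeR's newer deviances (FDR 0.0989) and with a sex term (FDR 0.0833). Gabpb1 and Gabpb2, its partner subunits, were called in 0 of the comparisons. The Gabpa gene shares 397 exon bases with Atp5j on the opposite strand, and it was not stated whether reads were counted by strand, so that its counts are uncertain. The same holds for Elf1, which shares 327 exon bases with Wbp4, and for Etv6, which shares 135 with the antisense gene Gm17089.

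Ets2 and Elf4 did not pass the test in either genotype, with or without the block. Ets2, a target of growth factor signalling through MAP kinases, had log2 fold changes of 0.12 ± 0.17 and 0.14 ± 0.17. Elf4, a regulator of quiescence and of innate immune genes, had -0.19 ± 0.13 and -0.06 ± 0.13. For Spib, the interval in KO mice ran from -3.78 to 1.34, so that even large differences between populations could not be resolved at its counts. Without the MPP3 KO library of mouse 3, which held 30 Spib counts against at most 1 in the others of its group, Spib was called lower in MPP3 cells of KO mice (FDR 0.0580), over a group left with 1, 0 and 0 counts. Without both libraries of that mouse it was not called (FDR 0.180), nor was it without any other mouse.

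**Figure D3:**
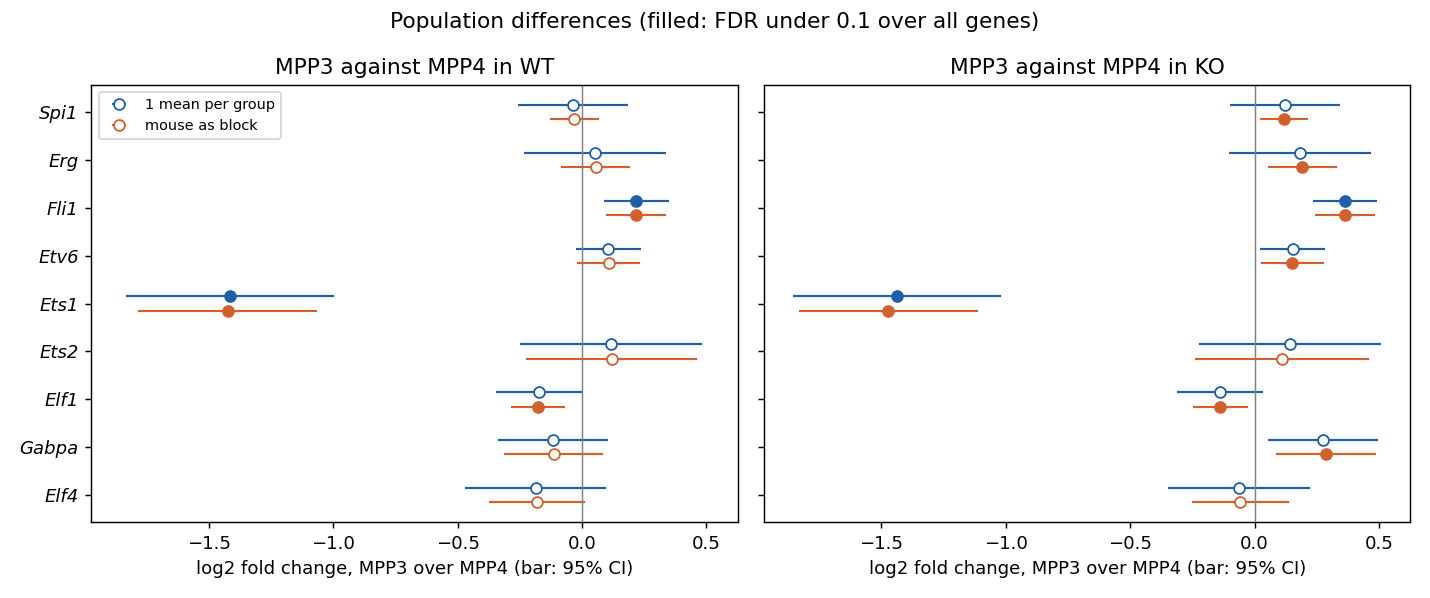
Log2 fold changes of MPP3 over MPP4 cells with 95% confidence intervals for the members except Spib, in WT (left) and KO mice (right), with 1 mean per group (blue) or with the mouse as a block (orange). Filled points have an FDR under 0.1 over all genes; Ets1 lies at about -1.4 in both panels and the other members lie between -0.19 and 0.36.

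The second comparison asked whether ETS factors differed between the mice labelled KO and WT for Ebf1. None of the 10 members was called in MPP3 cells, where edgeR called 0.0676% of all genes, or in MPP4 cells, where it called 0.0169%. DESeq2 called 0 members in both populations as well. Its background was larger, with 215 genes called in MPP3 and 305 in MPP4 cells, against 8 and 2 with edgeR. At an unadjusted p under 0.05, there were 3 of 10 members in MPP3 cells, Spi1, Spib and Etv6 (10.5% of all genes), and 4 of 10 in MPP4 cells (12.8% of all genes). The median log2 fold change of the members was -0.08 in MPP3 and -0.19 in MPP4 cells. The KO effects in the 2 populations used the same mice and are given side by side.

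Spib was low in most libraries labelled KO. It passed the filter on low counts only through the MPP4 WT group, whose mean rested on 1 library, so that its difference from that group is a description. In MPP3 cells, WT mice had 54, 47, 109 and 59 Spib counts, against 1, 0, 30 and 0 in KO mice. In MPP4 cells, WT mice had 42, 39, 256 and 87 counts, against 1, 0, 41 and 18 in KO mice. The groups did not overlap in MPP3 cells, which held for 4.58% of all genes, and overlapped in MPP4 cells by the 41 counts of KO mouse 3. The log2 fold change was -3.16 ± 1.18 in MPP3 (unadjusted p = 0.0163, FDR 0.346, edgeR) and -2.29 ± 1.10 in MPP4 cells (FDR 0.399). These sizes were not stable. Leaving out 1 library gave -7.23 (without the MPP3 KO library of mouse 3) to -2.74 in MPP3 and -3.77 (without the MPP4 KO library of mouse 3) to -1.56 (without the MPP4 WT library of mouse 3) in MPP4 cells, and an age term gave -1.83 and -0.91, and none of these was called. Because a count of 0 allows up to 3 counts, the KO libraries at 0 may still hold Spib RNA, and this covers counting error only.

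Some genes of B lineage and plasma cells were low in libraries with little Spib, others were not, and the summed marker lists overlapped between the genotypes. Cd79a, a component of the B cell receptor, was at 85, 88, 123 and 69 counts in WT against 1, 9, 25 and 13 in KO mice in MPP3 cells, and at 81, 47, 354 and 202 against 0, 6, 26 and 0 in MPP4 cells. Pax5, the B lineage commitment factor, was at 19, 1, 43 and 36 counts in WT against 0, 0, 9 and 0 in KO mice in MPP3 cells, and at 0 in all MPP4 libraries labelled KO. Jchain, a gene of plasma cells, ranged from 1363 to 4422 counts in MPP3 cells of WT mice, against 0, 8, 778 and 3 in those of KO mice, but in MPP4 cells it was at 10, 214, 8 and 27 counts in WT and 18, 85, 31 and 27 in KO mice, which overlapped. Blnk, an adaptor of B cell receptor signalling, had 13.7 to 18.9 CPM in WT against 26.4 to 33.7 CPM in KO mice in MPP4 cells, a direction opposite to that of Spib that did not pass the test (FDR 0.166). In MPP3 KO, the library with 30 Spib counts was thus also the one with the most Cd79a, Pax5 and Jchain. Of the 3 B progenitor markers that passed the filter, 0 were called in either population. The 8 B progenitor markers together, most of whose sum was Cd79b, summed in MPP3 cells to 79.6 to 86.9 CPM in WT and 72.3 to 86.6 CPM in KO mice, and in MPP4 cells to 94.8 to 124 CPM in WT and 113 to 120 CPM in KO mice. The 7 plasma cell markers, most of whose sum was Xbp1, summed in MPP3 cells to 202 to 380 CPM in WT and 179 to 349 CPM in KO mice, and in MPP4 cells to 210 to 362 CPM in WT and 189 to 385 CPM in KO mice. Of the 4 that passed the filter, 0 were called. The 6 markers of plasmacytoid dendritic cells summed in MPP3 cells to 254 to 292 CPM in WT and 251 to 289 CPM in KO mice, and in MPP4 cells to 449 to 511 CPM in WT and 494 to 528 CPM in KO mice. Most of this sum was Tcf4 and Bst2, which other cells express as well, and Siglech, a defining marker, had group means of 0.131 to 2.63 CPM. Cox6a2 had 0.658 to 2.51 CPM in MPP3 libraries, and in MPP4 cells 16.6 to 22.6 CPM in WT and 28.2 to 53.2 CPM in KO mice, opposite in direction to Spib. The part of such cells in the Spib difference was not tested.

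Spi1, in contrast, had a higher mean in the KO libraries. The log2 fold change was 0.23 ± 0.10 in MPP3 (95% confidence interval 0.00 to 0.45, unadjusted p = 0.0459, FDR 0.463, edgeR) and 0.07 ± 0.10 in MPP4 cells (FDR 0.811). Of the MPP3 KO libraries, 3 were above all WT libraries, and that of mouse 1, at 272 CPM, lay within the WT range. The summed level of the 8 myeloid progenitor markers was also lowest in that library, at 6835 CPM against 12362, 15843 and 15908 CPM in the other MPP3 KO libraries and 5720 to 9545 CPM in MPP3 WT. Its part in the Spi1 level was not tested.

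Erg, Fli1 and Etv6 had lower means in KO libraries of both populations. In MPP3 cells, Erg had 96.0, 121, 120 and 125 CPM in WT mice against 93.2, 91.3, 116 and 90.6 CPM in KO mice. In MPP4 cells, it had 88.6, 118, 121 and 119 CPM in WT mice against 89.0, 69.9, 107 and 78.6 CPM in KO mice. WT mouse 1 had the lowest Erg of the WT libraries and KO mouse 3 the highest of the KO libraries in both populations, and the groups overlapped through them. The log2 fold change of Erg was -0.24 ± 0.14 in MPP3 (FDR 0.590) and -0.37 ± 0.14 in MPP4 cells (FDR 0.261).

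In MPP4 cells, Fli1 ranged from 174 to 189 CPM in WT mice and from 150 to 165 CPM in KO mice. Etv6, a transcriptional repressor required by adult stem cells, ranged from 183 to 208 CPM in WT mice and from 165 to 178 CPM in KO mice. Neither pair of groups overlapped, which held for 7.27% of all genes. The log2 fold changes were -0.20 ± 0.06 for Fli1 (FDR 0.198) and -0.18 ± 0.06 for Etv6 (FDR 0.233). In MPP3 cells they were -0.06 ± 0.06 for Fli1 (FDR 0.809) and -0.14 ± 0.06 for Etv6 (FDR 0.456). The 7 stem cell markers summed in MPP3 cells to 474 to 570 CPM in WT and 401 to 461 CPM in KO mice, and in MPP4 cells to 252 to 333 CPM in WT and 171 to 234 CPM in KO mice, and their part in these values was not tested.

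The remaining members did not pass the test either. In MPP3 and MPP4 cells, respectively, the KO log2 fold change was 0.07 ± 0.19 and 0.10 ± 0.19 for Ets1, -0.28 ± 0.17 and -0.30 ± 0.17 for Ets2, -0.10 ± 0.08 and -0.14 ± 0.08 for Elf1, 0.16 ± 0.10 and -0.24 ± 0.10 for Gabpa, and -0.03 ± 0.13 and -0.15 ± 0.13 for Elf4. For Ets1, the interval in MPP4 cells ran from -0.31 to 0.50. No member was called in the interaction test of a different KO effect in the populations (0 of 10 called, and 0% of all genes with edgeR, 2.28% of all genes and 1 of 10 members, Gabpa, at an unadjusted p under 0.05; DESeq2 called 8 genes and 0 members).

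**Figure D4:**
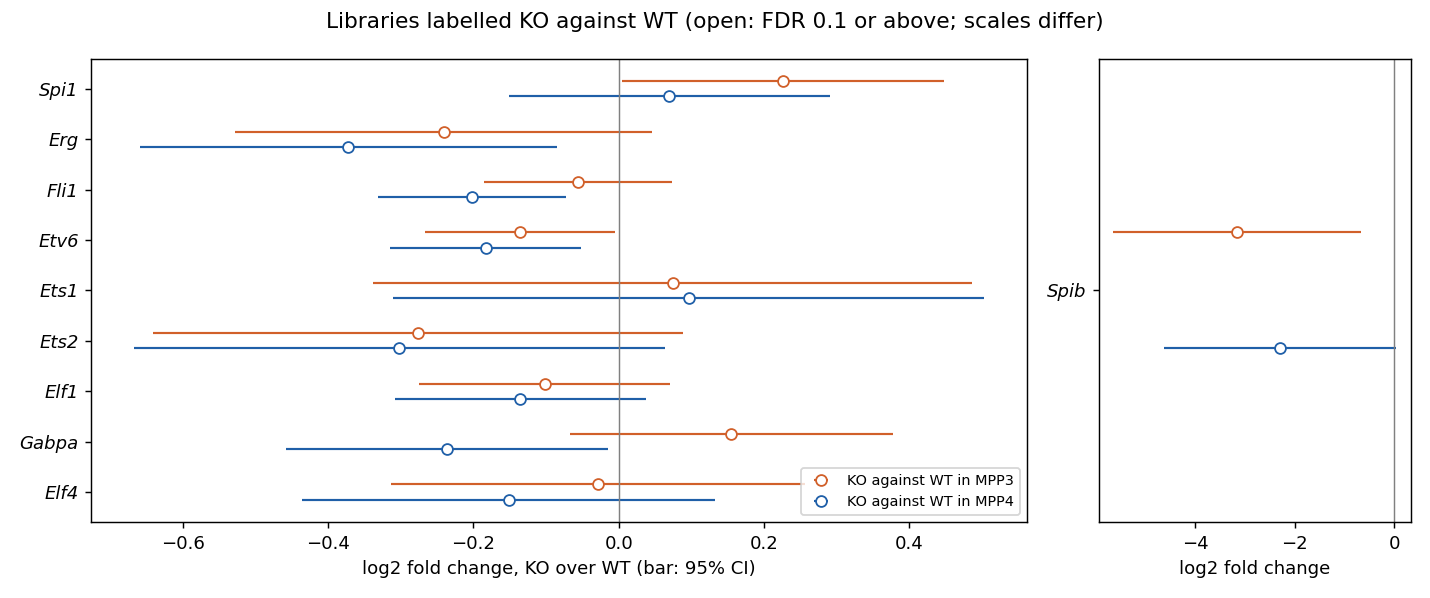
Log2 fold changes of libraries labelled KO over WT with 95% confidence intervals in MPP3 (orange) and MPP4 cells (blue), with Spib on a wider scale at the right. No member had an FDR under 0.1. Spi1 and Ets1 lie above 0 in both populations, Gabpa lies above 0 in MPP3 cells only, and the other members lie below 0 in both.

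To set Spi1 against its relatives, counts of each member were divided by those of Spi1 in the same library, which removes the library size. Per 100 Spi1 counts, MPP3 cells had 36.4, 42.5, 40.5 and 42.5 Erg counts in WT mice against 34.3, 26.4, 30.4 and 27.2 in KO mice. MPP4 cells had 35.6, 39.7, 39.1 and 38.0 in WT mice against 34.9, 21.6, 31.8 and 25.4 in KO mice. All KO libraries were below all WT libraries in both populations, and such a separation relative to Spi1 was found for 6.63% of all genes and 3 of the 9 other members in MPP3 cells (Erg, Ets2 and Spib) and for 4.84% of all genes and 1 of 9 in MPP4 cells. For Ets2, the highest KO library of MPP3 cells, at 7.18 counts per 100 Spi1 counts, was just below the lowest WT library, at 7.25. For Erg in MPP4 cells, the highest KO library, at 34.9, was likewise just below the lowest WT library, at 35.6. The separation of Erg in the 2 populations came from the same mice. On the log2 scale, the ratio of Erg to Spi1 differed by -0.46 ± 0.14 in MPP3 (unadjusted p = 0.00361, FDR 0.158, limma) and by -0.45 ± 0.14 in MPP4 cells (unadjusted p = 0.00440, FDR 0.442, limma), and neither was called, with 0.211% and 0.0761% of all genes called in these fits.

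Calls of the ratio to Spi1 in MPP3 cells depended on the libraries in the fit and on the use of a block. The log2 ratio of Erg stayed between -0.53 and -0.41 with any 1 library left out. Without the MPP3 KO library of mouse 1, which had the lowest Spi1 of its group, limma called 5 members lower relative to Spi1 in KO cells, Erg (-0.53 ± 0.14, FDR 0.0466), Spib (FDR 0.0433), Fli1 (FDR 0.0599), Etv6 (FDR 0.0624) and Elf1 (FDR 0.0521), and 2615 genes in all, which is 22.1% of those tested. With all libraries, 0 members were called without a block, and 6 members and 2779 genes with the replicate number as a block. For Spib, the size of the ratio depended on the prior count added to its low counts, with a log2 difference of -4.21 at a prior count of 2 (FDR 0.106) and -5.45 at 0.5 (FDR 0.119), and on the library left out (-5.08 to -3.82), so that its calls are given only to show how they vary. It passed the threshold without the MPP3 WT library of mouse 3 (FDR 0.0683) or 4 (FDR 0.0849), the MPP3 KO library of mouse 3 (FDR 0.0313), or the MPP4 KO library of mouse 1, 2 or 3 (FDR between 0.0721 and 0.0923). As every ratio of a library shares the same Spi1 value, a high or low Spi1 moves the ratios of all genes together.

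Between the populations, Ets1 was called relative to Spi1 in both genotypes. Per 100 Spi1 counts, WT mice had 8.25 to 12.3 Ets1 counts in MPP3 and 23.3 to 31.9 in MPP4 cells, and KO mice had 5.31 to 14.8 in MPP3 and 21.4 to 39.1 in MPP4 cells. The groups did not overlap, as for 11.2% of all genes in WT and 12.4% in KO mice. The log2 ratio was lower in MPP3 cells by 1.39 ± 0.24 in WT (FDR 0.000411) and by 1.59 ± 0.24 in KO mice (FDR 7.65e-05), where 8.64% and 12.2% of all genes were called. With the mouse as a block, which called 23.5% of all genes in WT and 36.6% in KO mice, Fli1 was called as well, at 0.25 ± 0.06 in WT (FDR 0.0102) and 0.24 ± 0.06 in KO mice (FDR 0.00864), as was Elf1 in KO mice, at -0.26 ± 0.07 (FDR 0.00818). Elf1 in KO mice was also called without the MPP3 KO library of mouse 1 (FDR 0.0581).

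**Figure D5:**
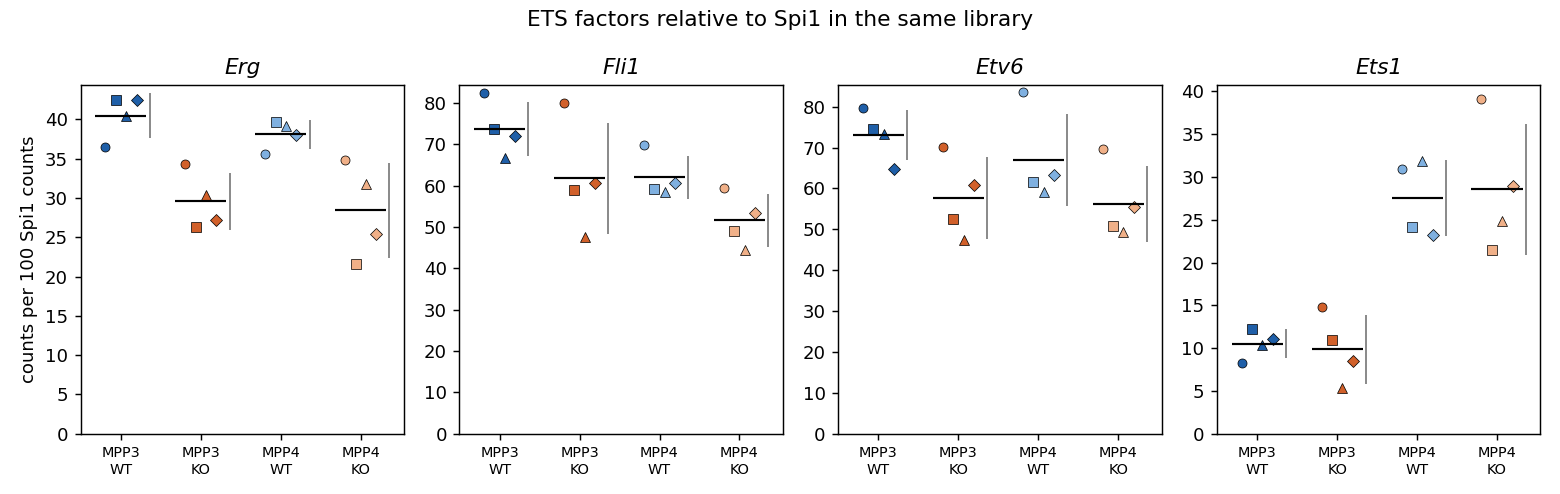
Counts of Erg, Fli1, Etv6 and Ets1 per 100 Spi1 counts in each library, with the mean (line) and ± 1 SD (grey bar) of 4 libraries per group and symbols for the mouse. Erg does not overlap between KO and WT libraries in either population, and Ets1 does not overlap between MPP3 and MPP4 libraries.

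Across all 16 libraries, the Pearson correlation of log2 CPM with Spi1 was highest for Ets2 among the other 9 members, at 0.12, and lowest for Etv6, at -0.44. After group means were taken away, the order was another one. Spib, Erg and Ets2 were then at 0.54, 0.51 and 0.47, and Gabpa and Etv6 were lowest, at -0.54 and -0.53. The 5 genes most like Spi1 over all libraries were Ftl1 (0.85), which encodes ferritin light chain, the C/EBP family gene Cebpd (0.84), Mgat2 (0.83), Txndc11 (0.82) and Bloc1s4 (0.81). These are descriptions over libraries that share mice, sort and preparation.

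The other 16 ETS genes were mostly low or passed no test. Of these, 8 passed the filter on low counts, and 3, Elf3, Etv2 and Spdef, had 0 counts in all libraries. Spic, the closest relative of Spi1 and Spib and a factor of iron-recycling macrophages, had between 4.54 and 6.04 CPM as group means and between 100 and 307 counts. Elf2 was the most abundant by CPM, with group means between 148 and 155 CPM. Between the populations, 0 of the 8 were called in WT mice and 1 in KO mice, against 15.1% and 17.9% of all genes. The gene called was Elk3, a repressor of the ternary complex factor group, which was lower in MPP3 cells by 0.31 ± 0.10 (FDR 0.0451). None was called by edgeR between KO and WT, where 0.0676% of all genes were called in MPP3 and 0.0169% in MPP4 cells. Etv5 in MPP4 cells had -0.68 ± 0.20 (FDR 0.196).

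Some partners of ETS factors were called between the populations. Erg and Fli1 are known to bind stem cell enhancers together with Runx1, Gata2, Tal1, Lyl1 and Lmo2. Of the 7 genes of this group tested, which includes Cbfb and Meis1, 3 were higher in MPP3 cells in both genotypes and 0 were lower, against 6.8% of all genes called higher in WT and 8.71% in KO mice. The median log2 fold change of the group was 0.11 in WT and 0.07 in KO mice. Gata2 was higher by 1.80 ± 0.18 in WT and 1.97 ± 0.18 in KO mice (FDR 3.31e-06 and 1.11e-06), Tal1 by 0.63 ± 0.18 and 0.90 ± 0.18 (FDR 0.0270 and 0.00209), and Meis1 by 0.51 ± 0.11 and 0.56 ± 0.11 (FDR 0.00341 and 0.00137). With the mouse as a block, Lyl1 was lower in MPP3 cells of WT mice as well (-0.22 ± 0.07, FDR 0.0335). Runx1, at 0.11 ± 0.13 and 0.07 ± 0.13, was not called.

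Of 8 tested partners or antagonists of PU.1, 1 was higher and 2 were lower in MPP3 cells in each genotype, where 15.1% of all genes were called in WT and 17.9% in KO mice. Irf8, which binds DNA together with PU.1 in monocytes, dendritic cells and B cells, was lower by 1.50 ± 0.22 in WT and by 1.39 ± 0.22 in KO mice (FDR 0.000147 and 0.000270). Ikzf1, which encodes Ikaros, was lower by 0.58 ± 0.17 and by 0.63 ± 0.17 (FDR 0.0319 and 0.0187). Gata1, which antagonises PU.1 in erythroid cells, was higher by 2.92 ± 0.51 and 3.26 ± 0.52 (FDR 0.000911 and 0.000357). Marker sums of other lineages that express Gata1, Gata2 and Tal1 were higher in MPP3 libraries too. They were 201 to 413 CPM in MPP3 and 24.9 to 57.4 CPM in MPP4 libraries for the 7 mast cell and basophil markers, 352 to 462 and 72.8 to 159 CPM for the 6 megakaryocyte markers, and 47.4 to 73.6 and 16.7 to 46.3 CPM for the 7 erythroid markers, which include Gata1 itself. Gzmb and Cma1 were at 0 in all MPP4 libraries, and the part of such cells in these differences was not tested. The block, which called 24.8% of all genes in WT and 28.3% in KO mice, added Myb in both genotypes (0.41 and 0.27) and Jun in KO mice (0.32). Between KO and WT, edgeR called 0 of the 8 in either population, and DESeq2, which called more genes, was not read for them. Irf8 had 0.88 ± 0.21 in MPP3 (FDR 0.164) and 0.77 ± 0.21 in MPP4 cells (FDR 0.182), and Cebpa had 0.72 ± 0.33 (FDR 0.458) and 0.71 ± 0.33 (FDR 0.380).

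Known targets of PU.1 went in both directions between the populations, while Spi1 itself had the values given above. Of 14 tested, 3 were higher and 5 were lower in MPP3 cells of WT mice, and 5 were higher and 5 lower in KO mice, against the same 15.1% and 17.9% of all genes in either direction. The genes higher in both genotypes were Fcgr3 (3.26 ± 0.37 in WT), Cybb (2.06 ± 0.45) and Csf3r (0.37 ± 0.10), which encode an Fc receptor, a subunit of the phagocyte oxidase and the G-CSF receptor. The genes lower in both were Il7r (-2.71 ± 0.36 in WT), Mpeg1 (-2.55 ± 0.27), Flt3 (-2.13 ± 0.10), Ncf1 (-1.82 ± 0.12) and Csf1r (-0.60 ± 0.20), which include the lymphoid cytokine receptor IL-7R and the M-CSF receptor. Csf2ra was also called higher in KO mice. Flt3 was used for the sort and is no independent result. Between KO and WT, edgeR called 0 of the 14 in either population, and DESeq2 was not read for them. The median log2 fold change was 0.33 in MPP3 and 0.19 in MPP4 cells. The lowest FDR among them was that of Csf1r in MPP4 cells, at 0.110, with 0.98 ± 0.20, followed by Mpeg1 in MPP3 cells, at 0.119, with 1.33 ± 0.26.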

How the data were processed

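The deposited tables held raw read counts per gene, which per the labels and the methods of the study were made by the authors from paired-end reads with STAR 2.7.3a and featureCounts 2.0.0 on mm10 (submitters' processing notes). The annotation release and the strand setting were not given in the sources used here. A second deposited table of normalised counts was not used. RNA of sorted cells was amplified with a low-input kit before sequencing, so that counts are not independent molecules. Of 47937 Ensembl identifiers, 47310 matched GENCODE M21, which gave symbols, exon lengths and positions (GRCm38).

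The 11831 genes tested were those whose average exceeded 100 counts in at least 1 group. The 16 libraries were fitted together with 1 mean per group by edgeR 4.0.16 (TMM factors, quasi-likelihood F-test, Benjamini-Hochberg adjustment over all genes tested, R 4.3.3). Ratios to Spi1 were tested with limma 3.58.1 on log2 CPM differences with a prior count of 2. DESeq2 1.42.0, other filters, sex and age terms, replicate blocks, and leaving out libraries were alternatives; leaving out whole mice and the joint sex and age terms were added after seeing the data. Libraries of the same number in MPP3 and MPP4 were paired by genotype, sex and age in the labels and by their correlated deviations. The fits were tested on simulated data. The labels call the libraries of a group biological replicates. The members, lists and tests were chosen with earlier results of these data known. All 10 members were named, the further lists are given as counts with examples, and the 5 genes most correlated with Spi1 were named. A listed gene that is counted but not named is not reported here.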

Additional observations from a re-analysis of the deposited data

Results flagged for a closer look

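In each group of 4 libraries, the highest or lowest CPM of each member was compared with the others by Dixon's criterion, which chance passes in about 1 in 20 groups. Of 40 member and group combinations, 3 passed it. Spib had 0.796 CPM in the MPP3 KO library of mouse 3, while the other MPP3 KO libraries had 0.0262, 0 and 0 CPM. Erg had 116 CPM in the same library, against 90.6 to 93.2 CPM in the others of its group. Erg also had 88.6 CPM in the MPP4 WT library of mouse 1, against 118 to 121 CPM in the others. No member passed the test of a different KO effect between the populations.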

How the results depend on the processing

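The calls of Ets1 in both population comparisons and of Fli1 in KO mice kept their direction and their side of the threshold under all alternatives run. Members called KO against WT stayed at 0 in both populations under all of them. With the mouse as a replicate block, genes called between populations numbered 2930 in WT and 3346 in KO mice, members called in KO mice 7, interaction genes 2, and the Ets2 interaction became -0.0094; for ratios to Spi1, genes called numbered 2779 and 4332 and members called 2 and 3. The replicate number is shared by KO and WT mice that are not otherwise paired (correlations -0.44 to 0.06); with it as a replicate block, genes called KO against WT were 29 in MPP3 and 23 in MPP4, 1 in the interaction, and for ratios to Spi1 2779 genes and 6 members in MPP3 and 148 genes and 1 member in MPP4. The cause was not tested for these or the following changes.
Testing all genes with at least 1 count left 1 member called in WT mice. Genes called KO against WT in MPP3 and MPP4 numbered 215 and 305 with DESeq2 (and 8 for the interaction), 5 and 37 with edgeR's newer deviances, 58 and 183 with a sex term, 1 and 1 with an age term, 36 and 1 with both terms, and 1 and 21 with only the 8 libraries of a population. The KO log2 fold change of Ets1 became -0.058 in MPP3 and -0.026 in MPP4 with an age term, and that of Elf1 in MPP3 became 0.022 with both terms.
Leaving out 1 library or, for fits without the ratio, 1 mouse moved the genes called between populations to 1141 (without WT mouse 4) to 1807 in WT and to 1390 (without KO mouse 2) to 2192 in KO mice, with 1 to 2 and 2 to 4 members called. Genes called KO against WT ranged from 1 (without the MPP3 WT library of mouse 2) to 135 (without that of mouse 3) in MPP3 and from 1 to 49 (without KO mouse 4) in MPP4, and interaction genes from 0 to 1. For ratios to Spi1, KO against WT gave 1 to 2615 genes called in MPP3 cells, and 4 to 11 in MPP4 cells, and members called from 0 to 5 in MPP3 for KO against WT and from 1 to 2 between populations in KO mice.
Log2 fold changes of members that were not called changed sign in such fits. Between populations in WT mice they ranged from -0.10 to 0.0015 for Spi1, -0.61 to 0.39 for Spib and -0.044 to 0.13 for Erg, and in KO mice from -5.29 to 0.25 for Spib, -0.017 to 0.32 for Ets2 and -0.15 to 0.017 for Elf4. For KO against WT in MPP3 they ranged from -0.063 to 0.24 for Ets1 and -0.12 to 0.021 for Elf4. Interactions ranged from -4.94 to 0.60 for Spib, -0.0025 to 0.093 for Etv6, -0.21 to 0.14 for Ets1, -0.14 to 0.20 for Ets2 and -0.029 to 0.081 for Elf1. Ratios to Spi1 ranged from -0.28 to 0.40 for Spib between populations in WT mice, from -0.050 to 0.18 for Erg, -0.066 to 0.14 for Etv6 and -0.11 to 0.11 for Ets2 in KO mice, and for KO against WT from -0.40 to 0.096 for Ets1 and -0.18 to 0.048 for Gabpa in MPP3 and from -0.13 to 0.16 for Ets1 in MPP4.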
